A study of Mus musculus with 2 samples.

Results

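The cholesterol synthesis genes described here were 7 enzymes of one pathway, Hmgcs1, Idi1, Fdps, Fdft1, Sqle, Lss and Cyp51, chosen by symbol out of the 31053 gene identifiers listed for both libraries. Each of the 7 symbols matched 1 identifier, and each gene passed the minimum of 100 transcripts over both libraries. The libraries were made by droplet-based single-cell RNA-Seq of organoids, cultures of epithelial cells grown in a gel, from the normal urothelium (NMU-O), the lining of the bladder, of wild-type C57BL/6 mice aged 8-10 weeks. Proliferative organoids (P) had been kept in complete medium, whereas differentiated organoids (D) had been moved to medium that lacked WNT3A, RSPO1, EGF, the BMP antagonist Noggin and the TGF-β receptor blocker LY2157299. Each condition was represented by 1 library of enzymatically dissociated cells, with 10000 cells loaded. The comparisons therefore have no replicate check, and neither a p-value nor a standard error can be given.

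Cholesterol is built from acetyl-CoA through the mevalonate pathway, whose branch point farnesyl diphosphate also feeds protein prenylation, and then through squalene and a series of sterol intermediates. Transcription of the enzymes is driven by sterol regulatory element-binding proteins (SREBP), which are held in the endoplasmic reticulum by SCAP and INSIG proteins when sterols are plentiful, so that the genes of the pathway commonly move together. In the urothelium, the luminal (umbrella) cells build an apical membrane covered with uroplakin plaques, a barrier that is rich in cholesterol. The study describes its differentiated organoids as lacking umbrella cells that could be told by their shape.

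Promoter elements of 2 kinds are commonly found near these genes, the sterol regulatory element bound by SREBP and the CCAAT box bound by NF-Y. RefSeq promoters (GRCm38.p6, 250 bases before to 50 after the start) were given for 4 of the 7 genes, Hmgcs1, Idi1, Lss and Cyp51. They were searched on both strands for TCACNCCAC, a core form of the sterol regulatory element, and for CCAAT, which reads ATTGG on the opposite strand. The sequences are shown 5′ to 3′ on the strand of each gene, with matches in capitals. All 4 genes had their highest level in the same cluster of D cells, described below, and any tie to these letters was not tested. For Hmgcs1 all 250 bases upstream are given (chr13:119690101-119690350, plus strand), and for the others the nearest 100 bases, which hold all of their matches: Idi1 at chr13:8885506-8885605 and Lss at chr10:76531505-76531604 on the plus strand, and Cyp51 at chr5:4104698-4104797 on the minus strand.
Hmgcs1: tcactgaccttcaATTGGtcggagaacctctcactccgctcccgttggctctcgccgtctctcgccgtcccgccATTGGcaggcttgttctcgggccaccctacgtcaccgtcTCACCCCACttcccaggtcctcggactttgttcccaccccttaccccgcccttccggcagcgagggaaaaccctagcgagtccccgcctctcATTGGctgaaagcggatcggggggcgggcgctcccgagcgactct
Idi1: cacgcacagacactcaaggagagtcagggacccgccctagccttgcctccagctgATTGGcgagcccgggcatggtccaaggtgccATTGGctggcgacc
Lss: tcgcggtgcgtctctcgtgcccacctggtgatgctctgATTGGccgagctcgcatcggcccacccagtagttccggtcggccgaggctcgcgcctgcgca
Cyp51: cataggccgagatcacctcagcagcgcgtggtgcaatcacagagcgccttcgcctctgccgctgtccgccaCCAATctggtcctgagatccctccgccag
The Hmgcs1 promoter held TCACCCCAC beginning 137 bases upstream of the start, between CCAAT matches, read as ATTGG, that began 237 and 176 bases upstream on its far side and 45 bases upstream on its near side, with a further match 11 bases past the start. It was the only 1 of the 4 with a sterol element match, whereas 4 of 4 held at least 1 CCAAT match. In Idi1 these began 45 and 14 bases upstream, in Lss 62 and in Cyp51 29 bases upstream. Among all 32851 promoters given, 1.24% held TCACNCCAC, 37.4% held CCAAT and 0.441% held both. A match is a description of letters and not a binding site, and many sterol elements have other letters. Of the other enzymes of the pathway, 11 of 13 genes had a promoter in the table, of which 10 held CCAAT and 0 the sterol element searched.

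After the study's filter (over 800 genes detected and at most 12% mitochondrial transcripts per cell), 6818 cells of P and 4896 cells of D were kept, with 26681469 and 20305621 unique molecular identifiers (UMIs, one per captured transcript). The median cell held 3405.5 UMIs in P and 3227.5 in D. Of all UMIs, 5.91% in P and 7.13% in D were mitochondrial, and 37.5% and 21.4% came from ribosomal protein genes. The libraries shared 6 cell barcodes among kept cells. Levels are UMIs per 1000000 UMIs of the same cells (CPM), with exact Poisson 95% intervals, and ratios are on the log2 scale with exact conditional binomial 95% intervals. These intervals cover counting error only. In summed levels, fewer cells with a transcript and fewer transcripts per cell cannot be told apart. Markers of other cell types were also summed, and 4 of 4 erythroid markers were at 0 in both libraries. The 6 fibroblast markers summed to 1.99 CPM in P and 62.5 in D, of which Dcn, a matrix proteoglycan, made 60.8, while Col1a2 was at 0. The 7 leukocyte markers summed to 1.20 and 20.3 CPM, of which Laptm5 made 19.7 in D while Cd3e and Tyrobp were at 0, and the 5 endothelial markers to 5.51 and 3.40 CPM, with Cdh5 and Kdr at 0. Their part in the differences below was not tested. The uroplakin genes, which define the differentiated urothelium, had UMIs for 5 of 5 in both libraries, at 20.5 CPM in P and 1245 CPM in D.

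To ask whether differentiation was accompanied by a change in sterol synthesis, each gene was first compared between the whole libraries. Summed over the 7 genes, the level was 179 CPM in P and 231 CPM in D, a log2 ratio of 0.36 (0.31 to 0.42). Of the 7 genes, 0 passed the 2-fold line upwards in D and 0 downwards, whereas 13.5% and 4.73% of all 10719 counted genes did. The median log2 ratio of the 7 genes was 0.26, below the 0.41 of all those genes. On the CPM scale 7 of 7 genes were above 0, but only 3 of 7 when the ratios were centred on the 0.42 median of genes with 100 UMIs in each library, so that the direction of the other 4 depended on the scaling. With that centring 0 of 7 passed 2-fold either way, whereas 5.64% of all genes passed upwards and 8.65% downwards.

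The first enzyme in the list, Hmgcs1 (chr13:119690379-119708260 on GRCm38), makes HMG-CoA early in the mevalonate pathway. It was counted 1273 times in P (47.7 CPM, 45.1 to 50.4) and 1332 times in D (65.6 CPM, 62.1 to 69.2), a log2 ratio of 0.46 (0.35 to 0.57). Idi1 (chr13:8885501-8892451) isomerises isopentenyl diphosphate, the unit from which isoprenoids are assembled. Its paralog Idi2 was counted 0 times in P and 3 times in D. Idi1 itself stood at 22.7 CPM in P and 33.2 CPM in D, a log2 ratio of 0.55 (0.39 to 0.71). Both Hmgcs1 and Idi1 were higher in D beyond counting error on the CPM scale. After centring they came to 0.04 and 0.13, within counting error, since the 0.42 of the median gene lies inside both intervals.

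Fdps (chr3:89093588-89101959) makes farnesyl diphosphate, and its level was 26.3 CPM in P and 30.04 CPM in D, a log2 ratio of 0.19 (0.03 to 0.35). Fdft1 (chr14:63145150-63179578), the squalene synthase that commits farnesyl diphosphate to sterols, had 26.9 CPM in P and 32.2 CPM in D, a log2 ratio of 0.26 (0.10 to 0.41). For both genes the ratio was below that of the median gene, with centred values of -0.23 and -0.16.

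Sqle (chr15:59315077-59331192) opens the sterol branch by epoxidising squalene, a step that uses oxygen. It was found at 21.9 CPM in P and 26.0 CPM in D, a log2 ratio of 0.25 (0.08 to 0.42). Lss (chr10:76531588-76557138) closes the ring to lanosterol and had the fewest UMIs of the 7, 150 in P and 225 in D. Its level was 5.62 CPM (4.76 to 6.60) in P and 11.1 CPM (9.68 to 12.6) in D, and its log2 ratio of 0.98 (0.67 to 1.29) lay just under the 2-fold line. Cyp51 (chr5:4081145-4104746) removes a methyl group from lanosterol, and it had 27.9 CPM in P and 32.6 CPM in D, a log2 ratio of 0.22 (0.07 to 0.37). After centring, Lss kept a ratio of 0.56, whereas Sqle and Cyp51 came to -0.17 and -0.20.

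**Figure D1:**
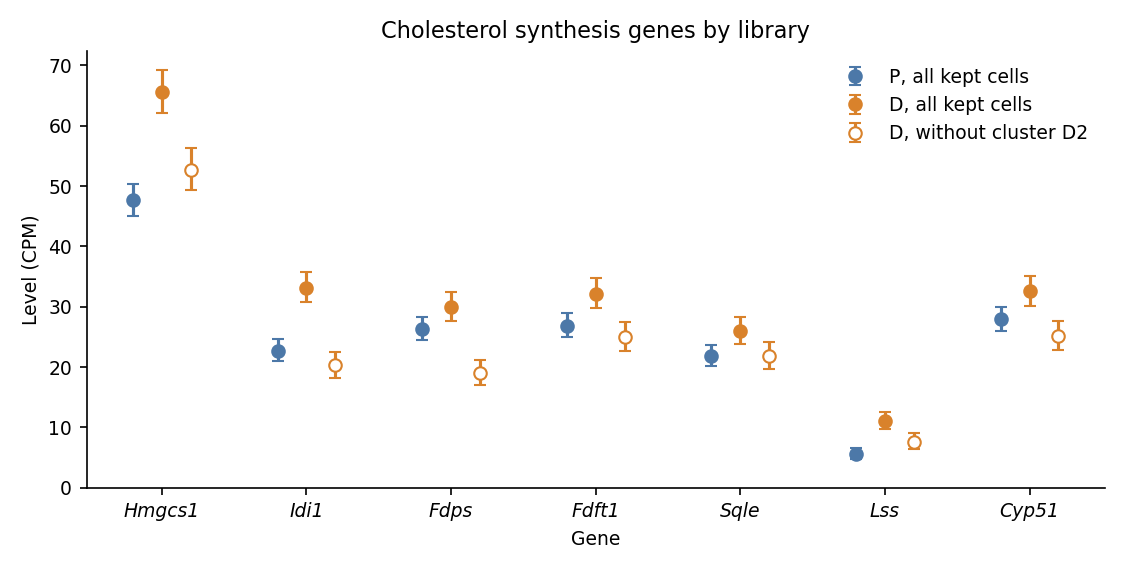
Level of each gene (CPM, vertical axis) in the P library, the D library and the D library without cluster D2. Points are summed levels over cells, bars exact Poisson 95% intervals for counting error only, and filled D points (all cells) lie above the P points for all 7 genes, whereas without cluster D2 the D intervals overlap those of P for every gene but Fdps, which lies lower in D.

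Levels were then described by cell state. Cells of each library were clustered, giving 4 clusters in P (P0 to P3) and 3 in D (D0 to D2). The clusters were formed from the expression of the same cells, and 6 of the 7 genes in P and 7 of 7 in D were themselves among the variable genes used, so the levels by cluster are a description without a test. P3, with 356 cells, was proliferative-like: 12 of 12 proliferation markers were at least 2-fold higher there than in the rest of P. P1 was squamous-like, led by Sprr3, Cnfn and Sprr2f, with 11 of 12 squamous markers at least 2-fold higher. In P1, 5 of 9 intermediate markers and the 3 uroplakin genes with at least 20 UMIs in P were also at least 2-fold higher. Its uroplakin level was 38.2 CPM. P0 was led by Ctla2a and Nbl1 with 3 of 7 basal markers at least 2-fold higher, and P2 by Fmo2 and Agr2. In D, cluster D0 was led by Reg1 and Krt1, and D1 by the contractile genes Acta2 and Cav1 with 4 of 7 basal markers and all 10 detected proliferation markers at least 2-fold higher than in the rest of D. D2 was luminal-like, with 5 of 5 uroplakin genes at least 2-fold higher than in the rest of D and Upk3a, Upk3b and Upk1b among its leading genes, although 4 of 12 squamous markers were also at least 2-fold higher. It held 714 cells, 14.6% of D, and its uroplakin level was 4119 CPM, where D0 had 809 and D1 68.8.

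The luminal-like cluster D2 had the highest level of these enzymes relative to its UMIs. The 7 genes summed to 503 CPM (480 to 527) in D2, to 168 CPM (160 to 175) in D0 and to 184 CPM (172 to 198) in D1. D2 was thus 2.93-fold above the other cells of D, a log2 ratio of 1.55 (1.47 to 1.64). It held 14.6% of the cells and 17.8% of the UMIs of D, but 38.7% of the UMIs of the 7 genes. All 7 of 7 genes were at least 2-fold higher in D2 than in the rest of D, where 2.99% of the 9398 genes counted 100 times or more in D were and 5.57% were at least 2-fold lower. The median gene had a log2 ratio of -0.08. In D0, 0 of 7 genes were at least 2-fold higher than in the rest of D (1.65% of all genes) and 3 of 7, Hmgcs1, Idi1 and Fdps, at least 2-fold lower (3.7%). In D1, 0 of 7 were higher by that measure (6.02%) and 2 of 7, Idi1 and Lss, lower (6.84%). In both contrasts the rest of D held D2, so the lower calls depend in part on its high level.

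Idi1 and Fdps differed most. Idi1 stood at 92.9 CPM (83.3 to 103) in D2, at 21.2 in D0 and at 17.6 in D1. Its level in D2 was 4.58 times that of the other D cells, and D2 alone held 49.7% of its UMIs in the library. Fdps came next, with 81.0 CPM (72.0 to 90.9) in D2 against 17.9 in D0 and 22.4 in D1, a ratio of 4.25-fold. Hmgcs1 followed another order, with 125 CPM (114 to 137) in D2, 72.7 (64.7 to 81.4) in D1 and 46.1 (42.5 to 50.1) in D0. It was the only gene of the 7 for which the intervals of all 3 D clusters stayed apart, D1 lying between the others.

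Fdft1 reached 65.2 CPM (57.1 to 74.1) in D2, where D0 had 25.4 and D1 23.8. Sqle showed the smallest difference, with 45.2 CPM (38.5 to 52.7) in D2, 22.4 in D0 and 19.98 in D1, 2.07-fold above the rest. Lss had 26.9 CPM (21.8 to 32.8) in D2, 8.37 in D0 and 5.54 in D1, a ratio of 3.51-fold. Cyp51 stood at 66.9 CPM (58.7 to 75.9) in D2, 26.1 in D0 and 22.4 in D1. For these 4 genes, as for Idi1 and Fdps, D0 and D1 overlapped within counting error and only D2 stood apart.

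**Figure D2:**
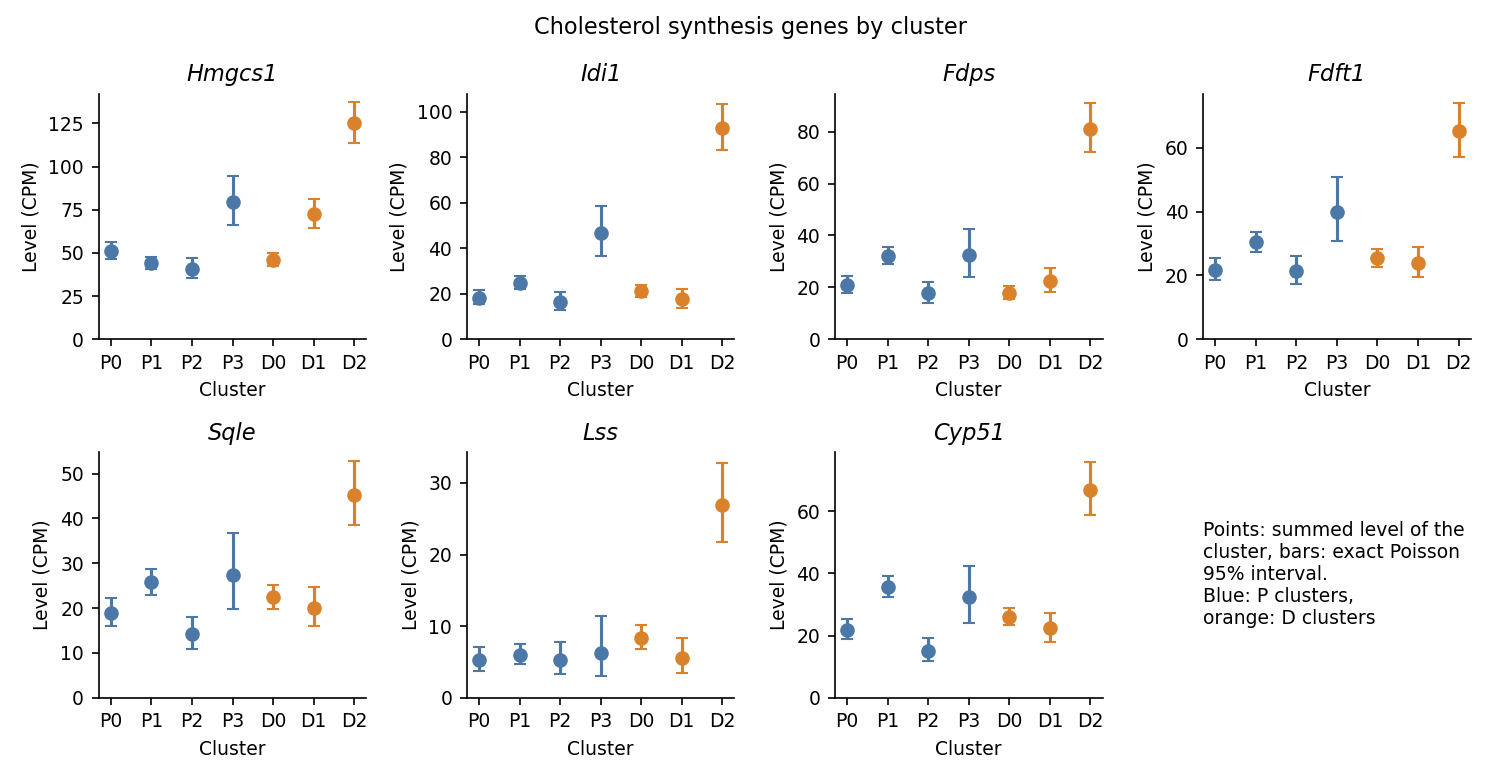
Level of each gene (CPM, vertical axes starting at 0) in the 4 clusters of P and the 3 clusters of D, with exact Poisson 95% intervals of the summed counts. In each of the 7 panels D2 is the highest of the 7 clusters and its interval overlaps none of the others, and P3 is the highest P cluster except for Cyp51, where P1 is.

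In P organoids the spread was narrower. The 7 genes summed to 264 CPM (240 to 290) in the proliferative-like P3, to 199 (191 to 207) in the squamous-like P1, to 158 (149 to 167) in P0 and to 131 (121 to 142) in P2. The highest cluster was 2.01 times the lowest in P, and 3.00 times in D. In P3, 1 of 7 genes was at least 2-fold higher than in the rest of P, where 7.82% of 9486 genes were: Idi1, at 46.6 CPM (36.7 to 58.4) against 24.7 in P1, 18.2 in P0 and 16.5 in P2. Hmgcs1 also stood apart in P3, at 79.5 CPM (66.3 to 94.6) against 51.1, 44.0 and 40.9 in P0, P1 and P2. For Fdps, Fdft1 and Sqle the intervals of P3 and P1 overlapped, and both lay higher in level than P0 and P2. The intervals of P3 for Fdps and Sqle, however, also reached those of P0. Cyp51 was highest in P1, at 35.7 CPM (32.5 to 39.2), with 32.3 in P3, 21.9 in P0 and 15.2 in P2, and Lss lay between 5.22 and 6.21 CPM in the 4 P clusters, with overlapping intervals. The other calls in P were few: 0 of 7 genes were 2-fold lower in P3 (5.56% of all genes), 0 of 7 passed in either direction in P0 (5.26% higher, 6.94% lower) and in P1 (5.78% and 8.28%), and in P2 0 of 7 were higher (0.264%) and 1 of 7, Cyp51, lower (4.45%).

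Several other properties of the cells moved with cluster D2. Its median cell held 4185.5 UMIs, where D0 had 3277.5 and D1 2679.5, and mitochondrial genes took 7.65% of its UMIs, against 7.45% in D0 and 5.73% in D1. Ribosomal protein genes took 16.5% of UMIs in D2, 21.3% in D0 and 20.7% in D1. Early response genes, such as Fos and Egr1, which are known to be induced by tissue dissociation, summed to 1935 CPM in D2, 3731 in D0 and 2672 in D1. At equal depth, with every cell thinned to 2100 UMIs, the 7 genes stood at 462 CPM (428 to 498) in D2, 151 in D0 and 183 in D1. Among cells at or under the median of early response UMIs, the levels were 486 CPM in D2, 190 in D0 and 198 in D1, and among cells over it 358, 122 and 159, a split within clusters that was chosen after the data had been seen. D2 was the highest in both groups of cells. The group over the median held 56.4% of D0, 38.5% of D1 and 19.1% of D2 cells. When the lipid genes were left out of the variable genes before clustering, a cluster with 99.6% of the D2 cells was found again, 711 of its 838 cells being shared, and the 7 genes stood at 443 CPM in it. Without the 5% of cells with the highest doublet scores, the matching cluster stood at 477 CPM. Fibroblast, leukocyte and endothelial markers summed to 7.49, 22.2 and 4.44 CPM in D2. The part of the depth, early response, mitochondrial, ribosomal and marker differences in the result was not tested.

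Without the D2 cells, the 7 genes summed to 172 CPM (166 to 178) in D against 179 CPM (174 to 184) in P, a log2 ratio of -0.06 (-0.13 to 0.01). This alternative was chosen after the clusters had been seen. The median of all counted genes was 0.42 in the same comparison. On the CPM scale, Hmgcs1 at 0.14 (0.02 to 0.27) and Lss at 0.45 (0.10 to 0.80) stayed higher in D, and Fdps at -0.47 (-0.66 to -0.28) was lower. The intervals of Idi1, Fdft1, Sqle and Cyp51 held 0. Outside D2, the summed level of D and P thus did not differ beyond counting error on that scale. The intervals of the sum and of Hmgcs1 lay below the 0.42 of the median gene, while that of Lss held it. Relative to the median gene, the summed level of D outside D2 was thus lower than that of P.

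A joint clustering of both libraries, with the listed lipid genes left out of the integration, allowed D and P to be compared within shared states. It gave 5 joint clusters (J0 to J4). J3 was led by uroplakin genes and held 193 P cells and 680 D cells. Within J3 the 7 genes summed to 128 CPM in P and 505 CPM in D, a log2 ratio of 1.98 (1.72 to 2.26). By gene, the log2 ratio in J3 ranged from 0.86 (0.25 to 1.53) for Sqle to 3.21 (1.62 to 5.51) for Lss, which rests on 3 UMIs in P, and 7 of 7 intervals lay above 0. Hmgcs1 differed by 2.08 (1.54 to 2.68), Idi1 by 2.85 (2.02 to 3.81) and Fdps by 2.57 (1.77 to 3.49).

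In J0, J1 and J2 the libraries differed far less on the CPM scale. The summed log2 ratio was -0.11 (-0.20 to -0.02) in J0, which had 2255 P and 2197 D cells, 0.12 (-0.02 to 0.26) in J1 with 2566 and 1263 cells, and -0.25 (-0.43 to -0.06) in J2 with 1442 and 733 cells. After centring on the median gene of the whole libraries these came to -0.53, -0.30 and -0.67, and that of J3 to 1.56. The ratio of the median gene within each joint cluster is not given here, so a lower level in D within these states is not established. J4, led by cell cycle genes, held only 23 D cells against 362 P cells, and its ratio was 1.05 (0.66 to 1.42). There the 7 genes summed to 261 CPM in P and 541 CPM in D, the latter from 68 UMIs. With the same centring its ratio came to 0.63. In D the level of J4 was thus not below that of J3, although it rests on few cells. J3 cells of both libraries did not carry the same amount of uroplakin transcripts: their uroplakin level was 249 CPM in P and 4227 CPM in D. The median J3 cell held 4003 UMIs in P and 4194.5 in D. Whether J3 groups the same kind of cell in both libraries was not tested.

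**Figure D3:**
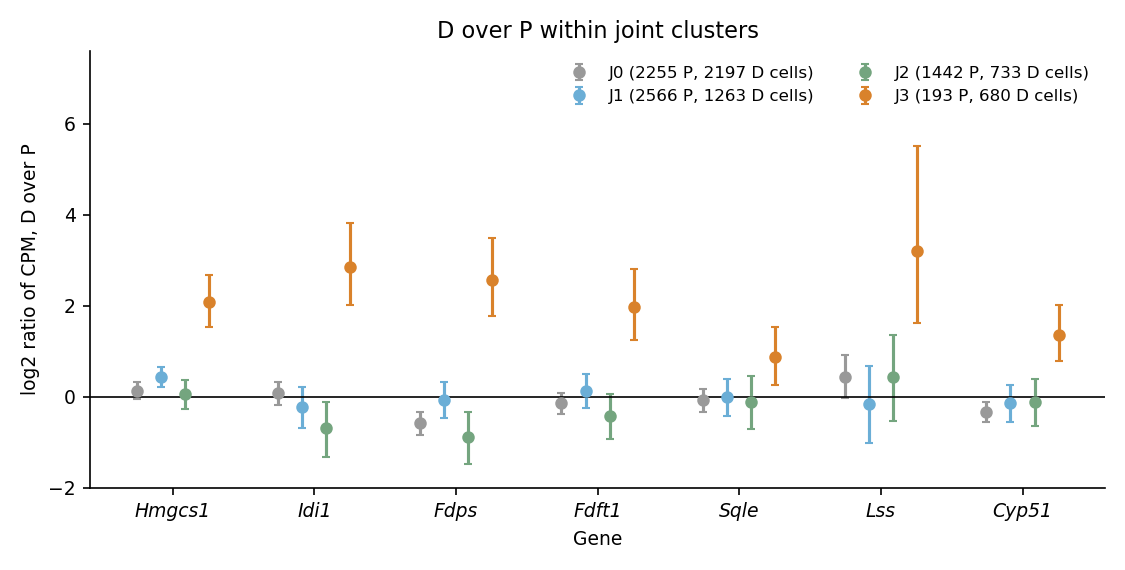
Log2 ratio of CPM, D over P, for each gene within joint clusters J0 to J3 (cell numbers in the key), with exact conditional binomial 95% intervals, J4 with 23 D cells not drawn. All 7 intervals of J3 lie above 0, whereas in J0, J1 and J2 the intervals hold 0 except those of Fdps in J0 and J2, Cyp51 in J0 and Idi1 in J2, which lie below it, and of Hmgcs1 in J1, above it.

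Cell states defined directly by marker transcripts, in cells thinned to 2100 UMIs, were compared next. In D, cells with at least 1 uroplakin UMI had 242 CPM of the 7 genes and cells with none 169 CPM, a log2 ratio of 0.52 (0.39 to 0.66). Idi1 at 1.09 (0.72 to 1.47), Fdps at 0.997 (0.59 to 1.42) and Lss at 0.99 (0.31 to 1.70) differed most, whereas Hmgcs1 differed by 0.05 (-0.19 to 0.30), within counting error. Bins of uroplakin UMIs and splits within clusters were added after the data had been seen. In D the level was 169 CPM with 0 uroplakin UMIs, 172 with 1 to 2, 238 (212 to 266) with 3 to 5 and 413 (376 to 453) with 6 or more. Of the cells with 6 or more, 73.3% lay in D2. Within D0, cells with and without a uroplakin UMI had 153 and 148 CPM, a log2 ratio of 0.05 (-0.15 to 0.25), and within D2 466 and 384 CPM, 0.28 (-0.26 to 0.87). In P, where 179 cells had a uroplakin UMI, the ratio was -0.20 (-0.62 to 0.19), and with at least 2 uroplakin UMIs required it was 0.18 (-0.63 to 0.88), so that no direction could be told in P. Only 3 P cells had 6 or more uroplakin UMIs, at 794 CPM (258 to 1852) from 5 UMIs of the 7 genes.

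Cycling cells, those with at least 2 of 12 proliferation genes detected, had 210 CPM of the 7 genes in P and the other cells 162 CPM, a log2 ratio of 0.38 (0.14 to 0.61). Idi1 at 0.85 (0.22 to 1.42) and Hmgcs1 at 0.54 (0.08 to 0.96) were higher in cycling cells beyond counting error, and the intervals of the other 5 held 0. In D only 12 cells were cycling, at 516 CPM (275 to 882) against 207 CPM in the other cells, too few to compare. Cells with more early response UMIs than their library's median had lower levels of the 7 genes in both libraries. The levels were 145 and 175 CPM in P, a difference of -0.28 (-0.40 to -0.15) on the log2 scale, and 144 and 263 CPM in D, a difference of -0.86 (-1.005 to -0.73). In D, Idi1 differed by -1.39 (-1.80 to -1.002) and Fdps by -1.18 (-1.61 to -0.76). Early response genes were themselves higher in D, with 7 of 11 at least 2-fold higher where 13.5% of all genes were, and their part in the comparison of the libraries was not tested.

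Detection of the enzymes in the same cells was described next. At 2100 UMIs per cell, 25.3% (24.2 to 26.3%, exact Clopper-Pearson 95% interval) of P cells and 28.9% (27.6 to 30.3%) of D cells held at least 1 UMI of any of the 7 genes. By cluster this share was 48.5% (44.7 to 52.3%) in D2, 23.9% in D0 and 28.9% in D1, and between 21.04% and 30.4% in the 4 P clusters. These organoids held no cell type that should lack the enzymes, so the share that free RNA alone would give is unknown. Cells with 3 or more of these UMIs made up 12.1% (9.73 to 14.7%) of D2, 1.49% of D0 and 1.92% of D1. In D cells holding 3 or more UMIs of the other 6 genes, Idi1 was 18.7 times and Fdps 11.9 times as high as in cells holding none. The other 5 genes were between 4.21 and 6.76 times as high. In P the same ratios ran from 3.11 for Lss, whose interval held 1, to 7.18 for Idi1. Cells of 1 library share their preparation and are no replicates, so these ratios are a description.

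Within clusters, 24 of 28 gene and cluster pairs in P and 20 of 21 in D had a ratio above 1, and 14 and 17 of these did so beyond counting error. Some pairs rest on few UMIs, such as Lss in P3 with 1 UMI on each side. The same split was not made for all genes, so how many other genes would rise with it is unknown. Correlations across cells were weak at this depth: the Pearson r of a gene with the summed level of the other 6 was between 0.04 and 0.14 over 6638 P cells and between 0.06 and 0.23 over 4417 D cells.

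**Figure D4:**
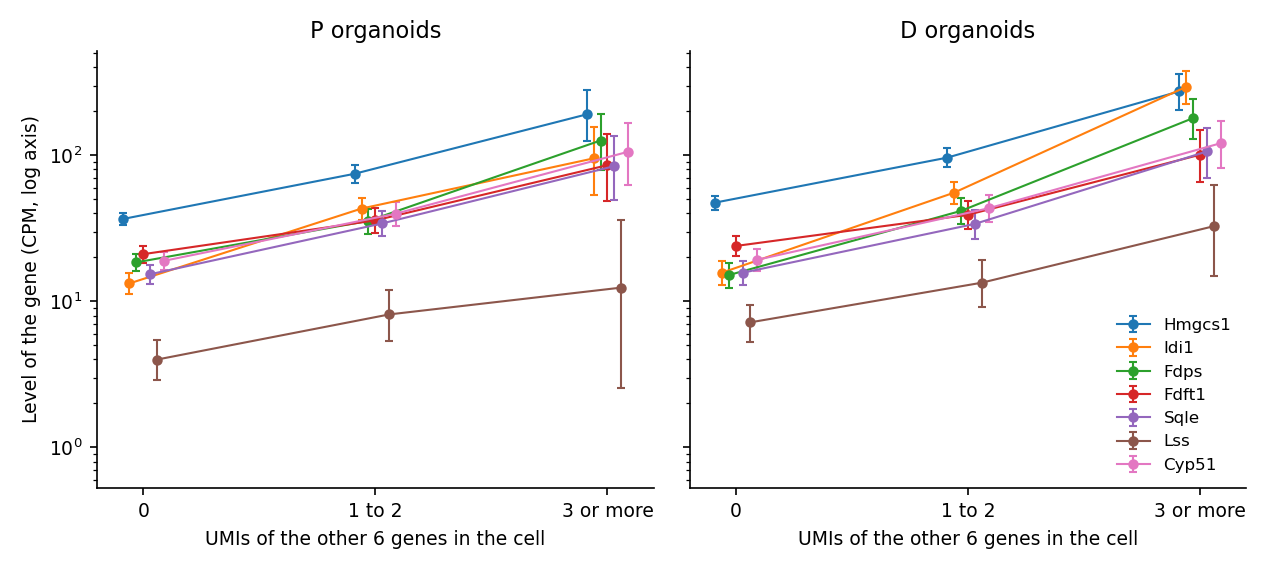
Level of each gene (CPM, log axis) in cells thinned to 2100 UMIs, grouped by the UMIs of the other 6 genes in the same cell (0, 1 to 2, 3 or more), with exact Poisson 95% intervals, for P and D organoids. All 7 lines go up from left to right in both libraries, and Idi1 and Fdps in D go up most.

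The other 13 enzymes of the pathway were described in the same way. Of the 13, 1 passed 2-fold upwards in D and 0 downwards, next to 13.5% and 4.73% of all genes, with a median log2 ratio of 0.19. The 1 was Hsd17b7, a sterol ketone reductase, with 6.26 CPM in P and 14.8 CPM in D, a log2 ratio of 1.24 (0.96 to 1.52) that came to 0.82, under the 2-fold line, after centring. Over all 20 enzymes the median was 0.25, close to that of the 7 genes.

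In cluster D2, 7 of the 12 other enzymes with at least 100 UMIs in D were at least 2-fold higher than in the rest of D, next to 2.99% of all genes, and all 12 were above it. Mvd, the last enzyme before isopentenyl diphosphate, had a log2 ratio of 2.08 (1.67 to 2.48), Pmvk, the kinase before it, 1.62 (1.34 to 1.90), and Nsdhl 1.51 (1.24 to 1.78). Msmo1, a sterol demethylase, stood at 125 CPM in D2, 52.6 in D0 and 49.8 in D1. Hsd17b7 departed from the others, with 26.1 CPM in D2 and 26.0 in D1, where D0 had 7.81. Over all 20 enzymes, 14 of the 19 counted were at least 2-fold higher in D2.

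**Figure D5:**
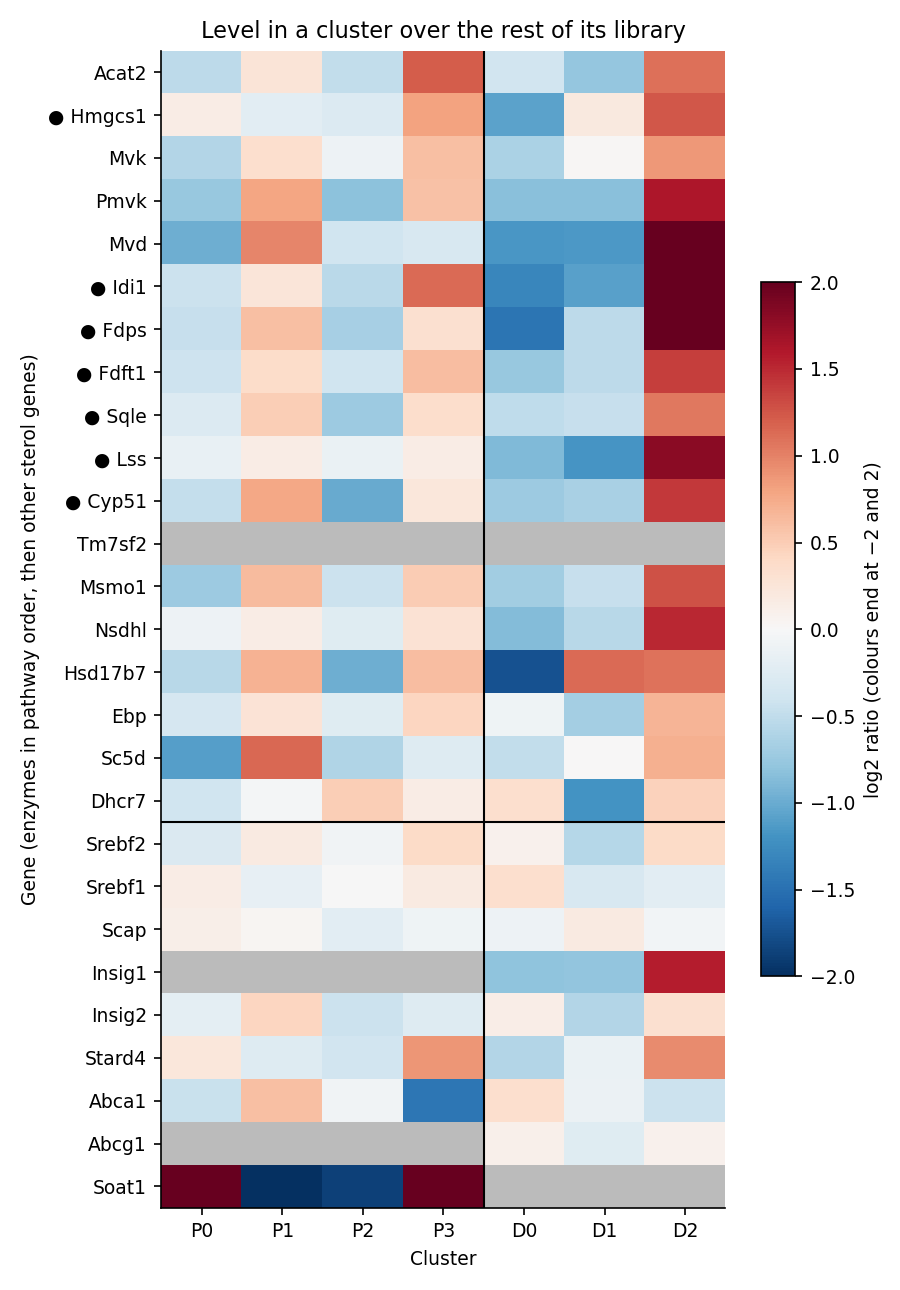
Log2 ratio of each gene in a cluster over the rest of its library, for enzymes of the pathway in their order (dots mark the 7 genes) and for genes of sterol regulation, uptake and efflux below the line. Grey marks genes with under 100 UMIs in that library. The D2 column is above 0 for every enzyme drawn, while Srebf1, Scap and Abca1 are below 0 there.

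The genes that regulate the pathway were mixed. Of the 7 SREBP regulation genes, 1 passed 2-fold upwards in D, a share near the 13.5% of all genes: Srebf1, which encodes the SREBP mainly tied to fatty acid synthesis, with 12.7 CPM in P and 47.1 CPM in D, a log2 ratio of 1.90 (1.72 to 2.08). Within D it was 51.3 CPM in D0, 39.2 in D1 and 41.9 in D2. Srebf2, which encodes the SREBP mainly tied to cholesterol synthesis, had 52.1 CPM in P and 62.9 in D, and 64.4, 45.5 and 77.96 CPM in D0, D1 and D2. Insig1, a feedback regulator that is itself a target of SREBP, was the 1 of these 7 genes at least 2-fold higher in D2, where 2.99% of all genes were. It stood at 14.1 CPM (10.5 to 18.6) in D2 against 5.02 in D0 and 4.09 in D1. Srebf2 at 0.39 (0.19 to 0.58) and Insig2, a relative of Insig1, at 0.33 (0.09 to 0.56) were less unequal on the log2 scale between D2 and the rest of D, and the median of the 7 genes was -0.05.

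Of the 8 uptake and trafficking genes, 7 had at least 100 UMIs. Of these, 0 passed 2-fold in either direction, next to 13.5% upwards and 4.73% downwards of all genes. Stard4, a carrier of cholesterol between membranes, had 10.6 and 5.71 CPM, a log2 ratio of -0.90 (-1.22 to -0.58). It passed 2-fold lower, at -1.32, after centring, as 8.65% of all genes did.

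The largest library differences among the sterol lists concerned efflux. Of 5 counted genes of the efflux, storage and LXR list, 3 passed 2-fold upwards in D and 1 downwards, next to 13.5% and 4.73% of all genes. Abcg1, a cholesterol exporter, had 1.65 CPM (1.20 to 2.21) in P and 23.2 CPM (21.2 to 25.4) in D, a log2 ratio of 3.82 (3.37 to 4.30). Abca1, which loads cholesterol onto apolipoproteins, had 8.13 and 48.9 CPM, a log2 ratio of 2.59 (2.37 to 2.81), and Mylip, a ubiquitin ligase induced by LXR, 40.0 and 80.9 CPM, a log2 ratio of 1.02 (0.90 to 1.13) that came to 0.59 after centring. Soat1, which esterifies cholesterol for storage, was lower in D, with 4.87 and 1.72 CPM, a log2 ratio of -1.50 (-2.08 to -0.95).

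The exporters did not follow the enzymes across D clusters. Abca1 stood at 53.1 CPM in D0, 45.7 in D1 and 38.0 in D2. It was lower in D2 than in the rest of D, a log2 ratio of -0.43 (-0.70 to -0.17). Abcg1 stood at 23.9, 20.2 and 24.4 CPM, and its ratio of 0.09 (-0.26 to 0.42) in D2 lay within counting error.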

How the data were processed

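Cells of P and D organoids were profiled with 10x Genomics 3′ chemistry (v3), 1 library per condition. Per the labels and the study's methods, the authors used bcl2fastq 2.19.0 and Cell Ranger 3.0.2 with the GRCm38/mm10 transcriptome. The deposited matrices hold raw UMI counts per gene and barcode, not normalized.

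Cells with over 800 genes and at most 12% mitochondrial UMIs were kept (the study states the same number of D cells and slightly more P cells after its filter), counts were summed, and CPM with exact Poisson, Clopper-Pearson and conditional binomial 95% intervals were computed (Python 3.11.15, scipy 1.17.1). A gene was called at 2-fold or more with at least 100 UMIs over both libraries, or over 1 library for cluster contrasts. Clustering used Seurat 5.3.0 in R 4.3.3: 2000 variable features, 25 components in P and 21 in D, resolution 0.2, and joint anchors with 25 dimensions at resolution 0.17. Cells were thinned to 2100 UMIs for shares and marker-defined states, which left out 180 P and 479 D cells. Scrublet (scanpy 1.11.5) called 0 doublets in either library and so did not work as a caller. Doublets were therefore not removed, and in an alternative the 5% of cells with the highest scores were left out.

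The 7 genes, the lists and the rule that named genes are list members, cluster-leading genes and the 10 genes most like the 7 were chosen with earlier results of these data known. Some members of the lists are counted in their totals but are not reported here by name. Promoters came from RefSeq (GRCm38.p6), gene positions from GENCODE vM21. The ratio, interval and thinning steps were tested on simulated data. No annotated gene was named as a copy of any of the 7, and how reads shared with unnamed copies were assigned is not given in the sources used here.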

Additional observations from a re-analysis of the deposited data

Results flagged for a closer look

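Under the same contrast, uroplakin-led joint cluster J3 over the rest of its library, the 7 genes went opposite ways: the log2 ratio was -0.50 (-0.77 to -0.24) in P, where J3 cells had 128 CPM and the others 181 CPM, and 1.53 (1.45 to 1.62) in D, where J3 cells had 505 CPM and the others 174 CPM. With 1 library per condition the difference between the libraries was not tested.

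Barcodes that failed the cell filter and entered no comparison also carried transcripts of the 7 genes. Per 1000000 non-mitochondrial UMIs, the 1376 barcodes left out of P had 165 (148 to 184) UMIs of the 7 genes, where kept cells had 190. The 2079 barcodes left out of D had 224 (204 to 246), where kept cells had 248. The rates of the barcodes left out rest on 329 UMIs in P and 465 in D.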

How the results depend on the processing

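With 1 library per condition, no replicate could be left out. No paired analysis was possible because the groups share only 1 replicate number and no result comes from a test. The median log2 ratio of the 7 genes, 0.26, came to -0.16 with scaling by the median ratio and to -0.077 without mitochondrial and ribosomal protein UMIs, and, chosen after seeing the data, to -0.10 without cluster D2 and -0.057 without clusters D2 and P3. The count of the 7 genes at least 2-fold higher in D was 1 instead of 0, from Lss, over all deposited barcodes and without cycling cells. In D the cycling ratio of 1.32, from 12 cells, turned to -0.13 with 1 proliferation gene required, and the uroplakin ratio came to 0.70 with 2 UMIs required. Shares of cells with a UMI of the 7 genes were 38.3% in P and 42.4% in D at full depth. The number of all genes at least 2-fold higher in D fell from 1442 to 605 with scaling by the median ratio, and that of genes lower went from 507 to 927. With 20 in place of 100 UMIs as the minimum, 889 genes were lower. The ratio of the highest to the lowest cluster kept within 2.81 to 3.44 in D and 1.66 to 2.45 in P under 4 alternatives. Depth limits Lss most, with 150 UMIs in P and 225 in D.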

Other observations

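Genes of fatty acid synthesis, also under SREBP control, went both ways between the libraries. Of 10 genes, 3 passed 2-fold upwards in D and 0 downwards, next to 13.5% and 4.73% of all genes. Scd2, a stearoyl-CoA desaturase, had 151 CPM in P and 393 CPM in D, a log2 ratio of 1.38 (1.33 to 1.44). Me1, the malic enzyme that supplies NADPH, had 15.8 and 41.96 CPM, 1.41 (1.24 to 1.58), and Acss2, an acetyl-CoA synthetase, 4.91 and 10.5 CPM, 1.10 (0.77 to 1.42). After centring on the median gene these 3 came to 0.96, 0.99 and 0.67, all under the 2-fold line. The log2 ratio was below 0 beyond counting error for the desaturases Scd1 at -0.53 (-0.78 to -0.27), Fads1 at -0.52 (-0.68 to -0.36) and Fads2 at -0.43 (-0.85 to -0.01), and for Elovl6, a fatty acid elongase, at -0.25 (-0.44 to -0.06). Within D, Me1 stood at 73.0 CPM in D2, 41.5 in D0 and 16.4 in D1, and Elovl6 at 33.3, 14.2 and 16.4 CPM. Both, 2 of the 9 genes of this list counted in D, were at least 2-fold higher in D2 than in the rest of D, next to 2.99% of all genes. Scd2 was spread over the 3 clusters, with 397, 342 and 439 CPM in D0, D1 and D2.

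The isoprenoid branch, which leads farnesyl diphosphate to prenylation, dolichol and ubiquinone, had 0 of 6 counted genes past 2-fold in either direction. Of all genes, 13.5% passed upwards in D and 4.73% downwards. The median log2 ratio of the branch was 0.48, near the 0.41 of all genes. In D2, 0 of 6 were at least 2-fold higher than in the rest of D, next to 2.99% of all genes. The median there was -0.19, and -0.08 for all genes. Ggps1, the synthase of geranylgeranyl diphosphate, had 30.5, 31.5 and 26.6 CPM in D0, D1 and D2.

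Among 4320 genes counted 500 times or more in P and in D, the 10 whose level over thinned cells was most like the sum of the 7 genes, ranked by the lower Pearson r of both libraries, were Fabp5, S100a6, Msmo1, Fgfbp1, S100a11, Dbi, Ndufa4, Gsto1, Anxa2 and Krt6a. The lower r ran from 0.14 for Fabp5 to 0.08 for Krt6a over 6638 P and 4417 D cells of the same libraries. These are weak correlations in sparse counts, where the 99th percentile of r over these genes was 0.06 in P and 0.08 in D. Msmo1 is the 1 enzyme of the pathway among the 10, with r of 0.15 in P and 0.13 in D. The order of Fabp5 between the libraries went against that of the 7 genes, with 588 CPM in P and 57.6 CPM in D.

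Cells with more hypoxia-list UMIs than their library's median, a split chosen after seeing the data, had 141 CPM of the 7 genes in P and the others 181 CPM, a log2 ratio of -0.36 (-0.48 to -0.23). In D the levels were 226 and 203 CPM, a log2 ratio of 0.16 (0.00 to 0.31). Of the 7 counted hypoxia genes, 7 were at least 2-fold lower in D, next to 4.73% of all genes.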
